A study of Mus musculus with 24 samples.

Results

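Interferon-stimulated genes were followed in mouse RNA from mutant and wild-type animals of a study of BRCA1 in pregnancy. The set is a list of 37 genes, each represented by the probe set whose only gene symbol is that of the gene, or by the one of highest mean over the 24 arrays where there were several. Of the 37 genes, 32 had such a probe set, among 22180 genes with one on the array. Of these, 30 passed the filter on low values and were tested among 15234 genes. Isg15 and Mx1 did not pass it, Oas1a, Ifi27l2a, Dtx3l and Gbp2 had only a probe set shared with another gene, and Ifi44 was not analysed here.

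Type I and type III interferons bind cell surface receptors, and the kinases JAK1 and TYK2 then activate a complex that includes STAT2 and IRF9 and binds interferon-stimulated response elements in promoters. The induced genes encode sensors of foreign nucleic acid, transcription factors that feed the response, and effectors that block steps of viral replication, and USP18 dampens the receptor. STAT factors also relay cytokine and prolactin signals in the mammary gland, the tissue that the milk protein genes below mark.

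The tested groups were 12 arrays of mutants and 12 of wild-type animals, 3 of each genotype at each of 4 stages. The stage codes V, dp12, dp18 and Lac10 are taken to mean virgins, an earlier and a later point of pregnancy, and lactation. Every sample is labelled with the same cross of FVB, 129SVEV and Black Swiss mice, and no treatment group was labelled. The labels name neither the tissue, the mutated allele, a promoter or Cre that acts on it, nor an age, and the design text calls the stage numbers months. The sample titles give each mutant array a number of its own and most arrays a body weight, and some a coat colour, which points to separate animals without stating it. A protocol field speaks of a pull-down with a tagged poly(A)-binding protein and another of total RNA, and which was used is not settled. Differences below are log2 values from the limma fit with their standard error (SE), in which wild type is subtracted from mutant and the earlier stage from the later, and a gene passed where its Benjamini-Hochberg adjusted p over all 15234 genes was under 0.05. The number of arrays limits the precision. In bulk RNA, fewer cells of a type and less RNA per cell cannot be told apart.

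The promoter stretches below, from position -170 to -51 relative to the RefSeq start (GRCm38.p6), are shown because the response element lies there in several of the genes whose levels are described. Capitals mark its core, which was searched as GAAA, any 2 bases and GAAA, or on the other strand as TTTC, any 2 bases and TTTC. Cmpk2, the gene with the most tests passed, holds no match there.
Cmpk2: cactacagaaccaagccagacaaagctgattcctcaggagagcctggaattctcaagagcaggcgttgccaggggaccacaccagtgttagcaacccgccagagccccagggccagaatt
Rsad2: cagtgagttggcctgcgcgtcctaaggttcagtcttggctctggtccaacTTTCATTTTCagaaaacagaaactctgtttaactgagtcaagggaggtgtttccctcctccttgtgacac
Ifit3: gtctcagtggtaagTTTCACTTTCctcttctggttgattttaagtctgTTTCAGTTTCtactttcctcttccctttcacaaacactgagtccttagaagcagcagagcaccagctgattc
Ifit1: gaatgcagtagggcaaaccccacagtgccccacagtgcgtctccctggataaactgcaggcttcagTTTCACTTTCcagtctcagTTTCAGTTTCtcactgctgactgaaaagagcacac
Oas3: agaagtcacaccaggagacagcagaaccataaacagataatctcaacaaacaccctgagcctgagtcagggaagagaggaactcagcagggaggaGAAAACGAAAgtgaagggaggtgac
Bst2: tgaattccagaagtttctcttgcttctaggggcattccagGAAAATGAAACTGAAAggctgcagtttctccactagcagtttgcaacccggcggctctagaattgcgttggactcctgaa
Isg15: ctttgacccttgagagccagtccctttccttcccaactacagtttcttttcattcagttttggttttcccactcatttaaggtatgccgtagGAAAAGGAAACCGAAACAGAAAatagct
The stretches lie at chr12:26469045-26469164 on the plus strand for Cmpk2, chr12:26456503-26456622 on the minus strand for Rsad2, chr19:34583359-34583478 on the plus strand for Ifit3, chr19:34640719-34640838 on the plus strand for Ifit1, chr5:120777710-120777829 on the minus strand for Oas3, chr8:71537523-71537642 on the minus strand for Bst2 and chr4:156200869-156200988 on the minus strand for Isg15.

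Of the 37 genes, 27 had a RefSeq promoter window from 250 bases before to 50 after the start, and 13 of them (48.1%) held the core on either strand, against 3.99% of 27025 genes. The interferon-gamma activated site TTCNNNGAA, which reads the same on both strands, was in 4 of the 27 windows (14.8%), against 9.55% of all genes. The stretches of Isg15, Ifit1, Ifit3 and Bst2 hold more than 1 core, and in Isg15 and Bst2 neighbouring matches overlap. A match is a description of the letters and not a binding site, and members with no match in this window include Irf7, Ifit2 and Oasl1. Among tested members, the 10 with a match had a median log2 difference from dp18 to Lac10 in wild type of 0.96, and the 12 without one had 0.78.

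**Figure D1:**
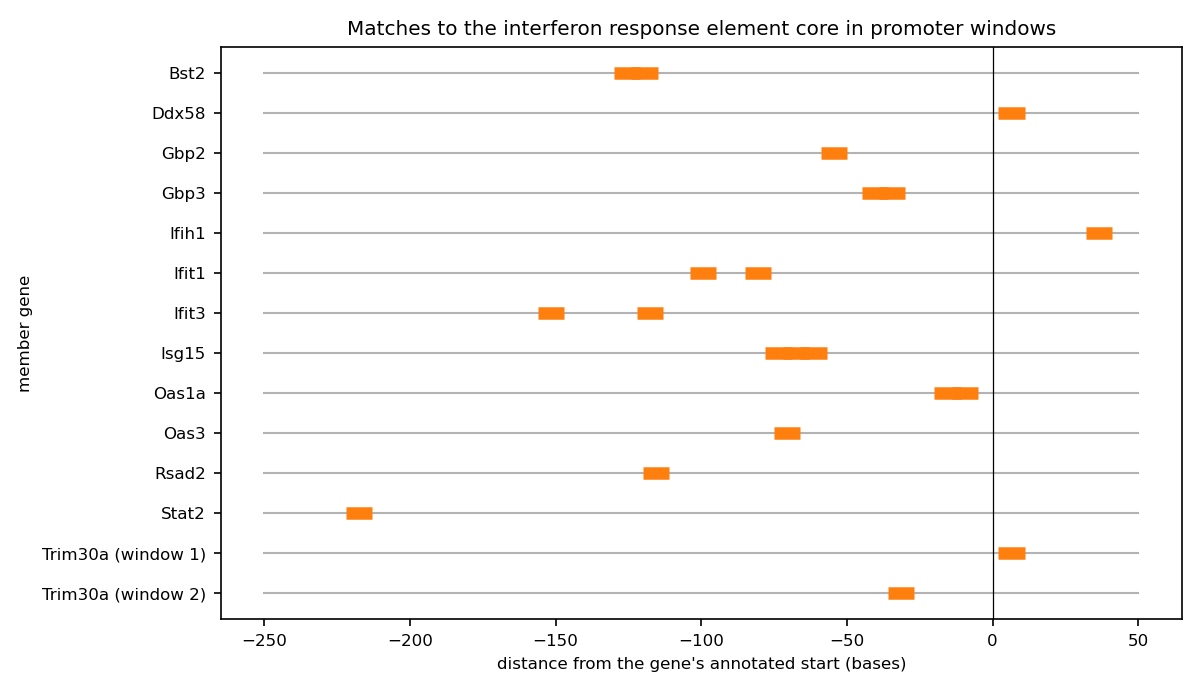
Matches to the response element core (orange) in the promoter windows of the 13 members that hold it, by distance in bases from the annotated start (vertical line), with a grey line for each window. Matches in Bst2, Ifit1, Ifit3, Isg15, Oas3 and Rsad2 lie between positions -156 and -57, and those in Ddx58 and Ifih1 lie after it.

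Several members sit side by side in the genome. With no protein-coding gene between them stand Rsad2 and Cmpk2 on chromosome 12, Ifit2 and Ifit3 on chromosome 19, Oasl2 and Oasl1 as well as Oas2 and Oas3 on chromosome 5, and Parp14, Dtx3l and Parp9 on chromosome 16.

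Some arrays stood apart. Taken against all other arrays, the median correlation ran from 0.799 to 0.968 and was lowest in mutant Lac10 replicate 2 (0.799), wild-type dp18 replicate 1 (0.837) and mutant dp18 replicate 1 (0.863). Those 3 arrays had the lowest of their group for 27, 26 and 28 of the 30 members, against 54.3%, 69.1% and 64.3% of all genes tested. The array labelled wild-type Lac10 replicate 1 resembled mutant dp12 replicate 1 most (correlation 0.988) and had a level of 6.47 for the casein gene Csn1s2b, against 11.5 and 11.2 on the other wild-type Lac10 arrays. The array labelled mutant dp18 replicate 2 had 10.4, against 6.30 and 5.93 on the other mutant dp18 arrays. These are the 2 arrays said below to go against their labels. Mutant Lac10 replicate 1, which is not counted among them, resembled wild-type virgin replicate 3 most (correlation 0.968). Its Csn1s2b level was 8.19, against 10.4 and 11.3 on the other mutant Lac10 arrays. Csn2, a main milk protein gene, lay between 10.2 and 13.2 on every array, while Ptprc, which marks leukocytes, ranged from 5.54 to 9.24.

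The members moved together from array to array. Their median level per array ran from 6.23 to 8.32, and within a group a single array was often the highest or the lowest for most of them. Wild-type virgin replicate 2 was the highest of its 3 arrays for 28 of the 30 members, against 44.0% of all genes tested. Mutant dp12 replicate 2 was the lowest for 28 members, against 34.9% of all genes, although its median correlation was 0.961. The SD within groups had a median of 0.584 over the members and 0.374 over all genes tested. Leukocyte markers moved with them in part: on wild-type virgin replicates 1 to 3 Ptprc lay at 5.64, 8.91 and 6.84 and the mean of 10 macrophage and neutrophil markers at 6.36, 8.78 and 7.83, and their part in the result was not tested.

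**Figure D2:**
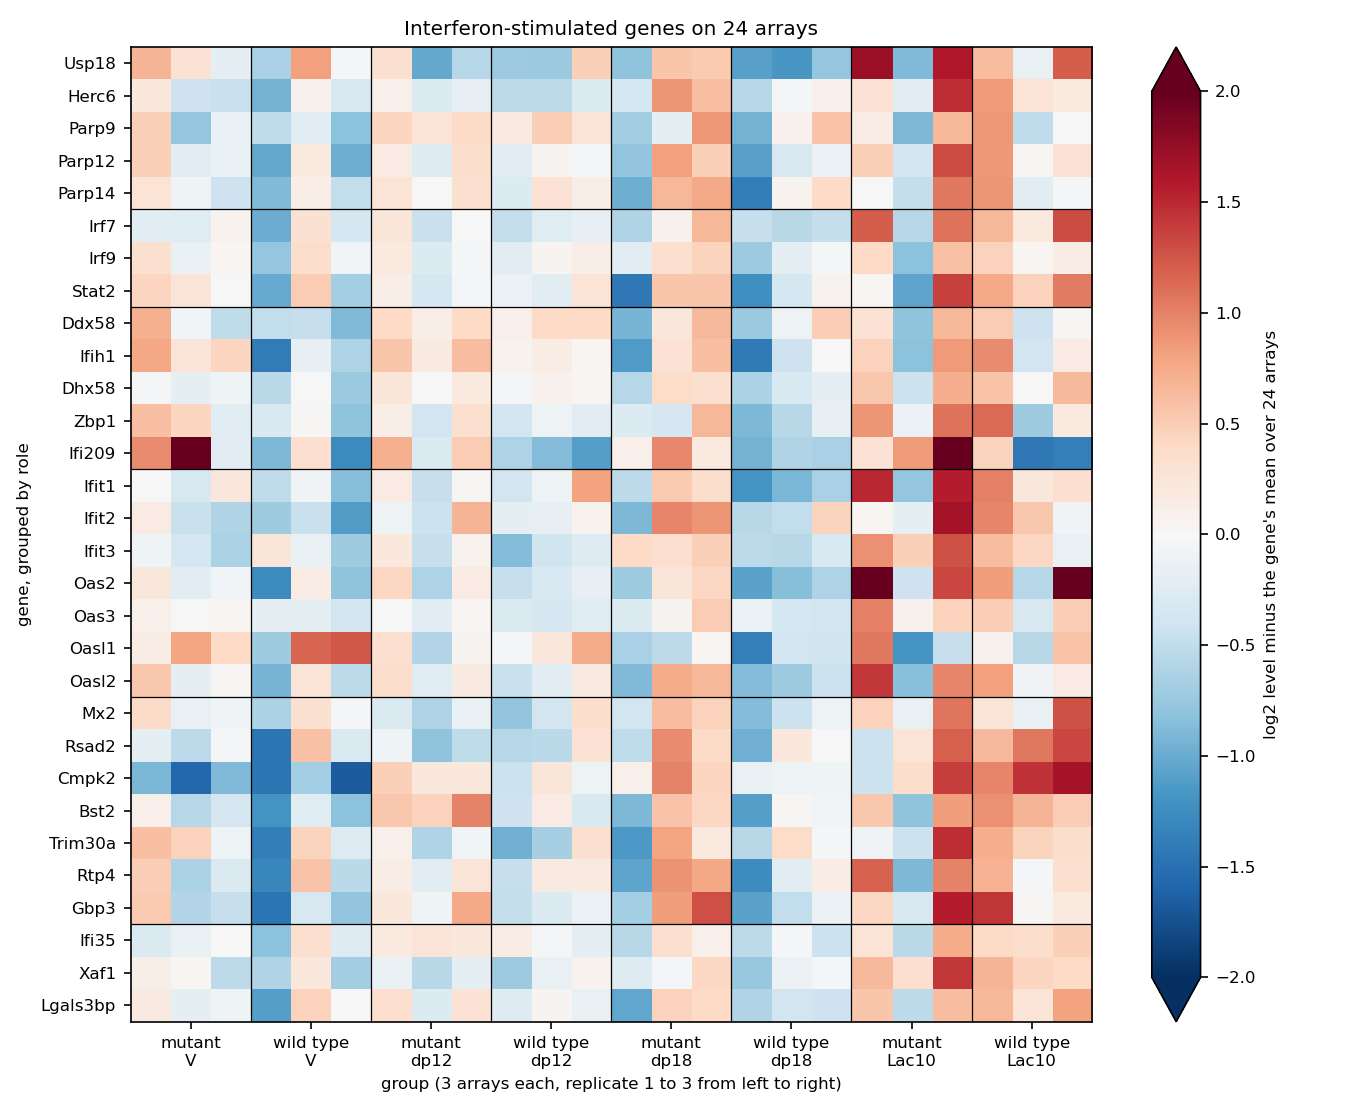
Log2 level of each of the 30 tested members minus its mean over 24 arrays (colour), with genes in rows grouped by role and arrays in columns by stage, mutant left of wild type. Columns are red or blue for most genes at once, as for mutant Lac10 replicate 3, which was the highest of its group for 23 of 30 members.

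**Figure D3:**
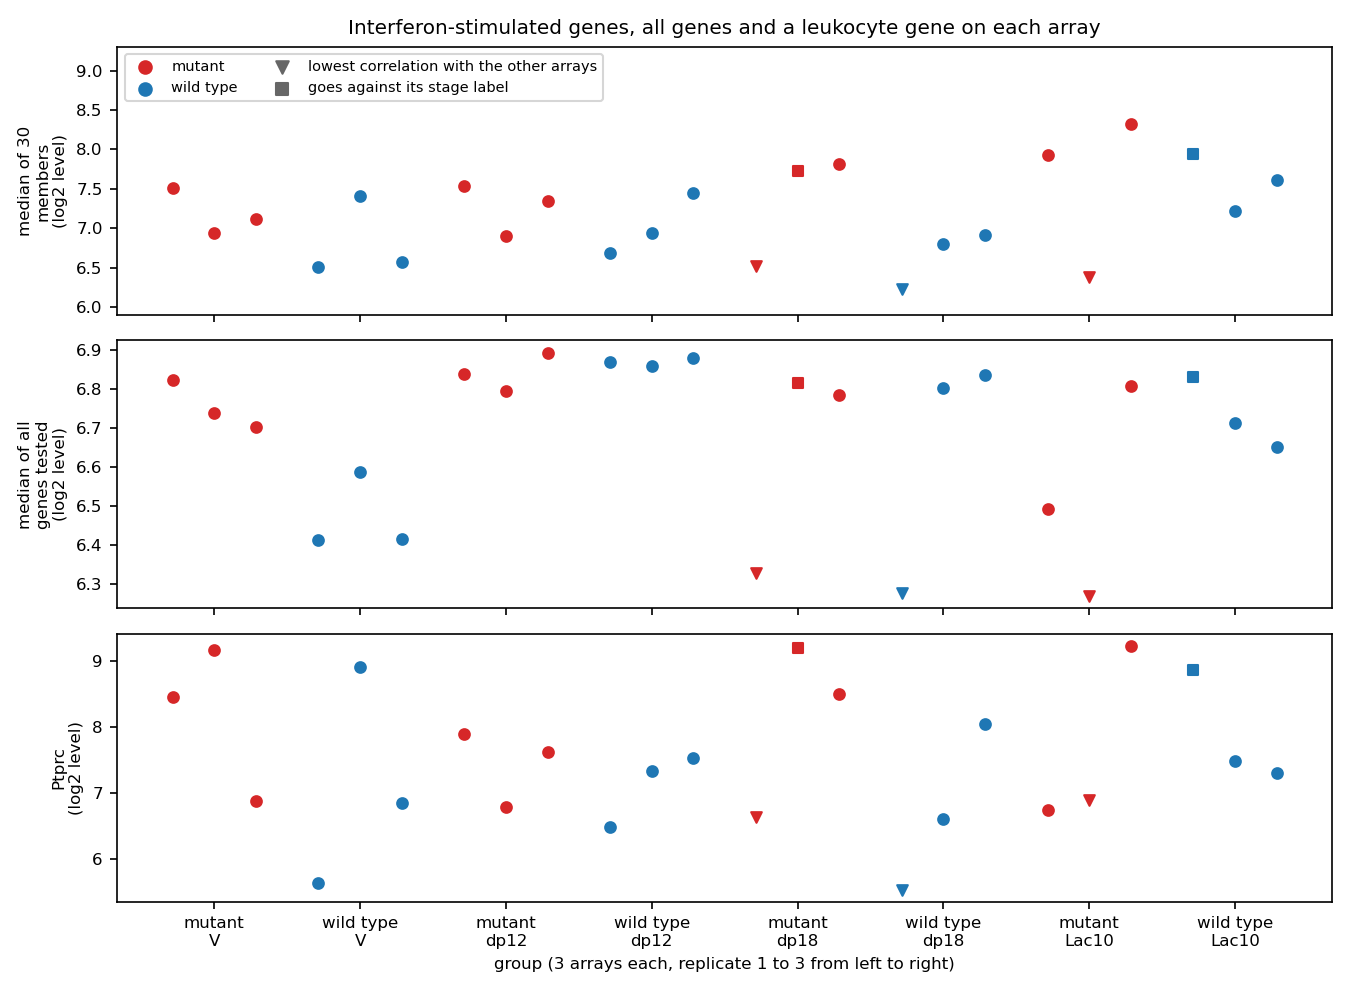
Median log2 level of the 30 members, median of all genes tested and level of Ptprc on each array (points, mutant red and wild type blue). Triangles mark the 3 arrays of lowest correlation and squares the 2 that go against their stage label, and the median over members reached 8.32 on mutant Lac10 replicate 3.

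Across stages, Cmpk2 and Ifit3 were the members that passed. Cmpk2, which encodes a mitochondrial nucleotide kinase induced by interferon, was at its lowest in virgins of both genotypes. In mutants it lay at 7.25, 6.59 and 7.28 in virgins, 8.64, 8.37 and 8.36 at dp12, 8.26, 9.15 and 8.59 at dp18 and 7.73, 8.52 and 9.54 at Lac10. In wild type it lay at 6.69, 7.48 and 6.50 in virgins, 7.74, 8.41 and 8.05 at dp12, 8.01, 8.05 and 8.07 at dp18 and 9.14, 9.61 and 9.82 at Lac10. Every dp12 array was above every virgin array of its genotype, and the wild-type Lac10 arrays were above all other wild-type arrays. Mutant Lac10 arrays reached from below to above the mutant dp12 and dp18 arrays.

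Cmpk2 rose from V to dp12 in mutants by 1.42 (SE 0.36, adjusted p = 0.0255, limma), the 1 member of 30 called there, while 4.44% of all genes were called and 3.02% called higher. In wild type the same step gave 1.18 (SE 0.36, adjusted p = 0.0524), and 0 of 30 members were called against 6.45% of all genes (5.91% higher), with 2 members at an unadjusted p under 0.05, against 32.4% of all genes. The mutant call was lost when any one of the 3 mutant dp12 arrays or mutant virgin replicate 2 was left out (adjusted p between 0.0769 and 0.179), and it was kept without mutant virgin replicate 1 or 3. Centring arrays on housekeeping genes also ended it (1.07, adjusted p = 0.074). Tested over the 4 stages at once with a moderated F test, Cmpk2 changed in mutants (adjusted p = 0.0191) and in wild type (adjusted p = 0.00299). It was the 1 member of 30 called in wild type, against 4.74% of all genes. Without mutant virgin replicate 2 the mutant F test did not pass (adjusted p = 0.129).

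Ifit3 was the other member that changed over the stages in mutants (adjusted p = 0.0291, moderated F test in limma), which made 2 of 30 members, against 6.08% of all genes. Its product belongs to the IFIT family, which binds foreign RNA and blocks its translation. In mutants it lay at 7.21, 6.95 and 6.67 in virgins, 7.51, 6.83 and 7.36 at dp12, 7.70, 7.63 and 7.77 at dp18 and 8.21, 7.78 and 8.57 at Lac10. In wild type it lay at 7.53, 7.15 and 6.58 in virgins, 6.43, 6.89 and 7.04 at dp12, 6.78, 6.75 and 6.99 at dp18 and 7.92, 7.72 and 7.15 at Lac10. The mutant arrays stood in stage order from dp12 to Lac10 without overlap, and in wild type the dp12 and dp18 arrays overlapped. Its call was lost with array median centring (adjusted p = 0.0762) and without mutant virgin replicate 2 or 3, dp12 replicate 2 or 3 or Lac10 replicate 3 (adjusted p between 0.0575 and 0.0821). With only the mutant arrays in the fit neither Cmpk2 nor Ifit3 was called (adjusted p = 0.112 and 0.091).

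**Figure D4:**
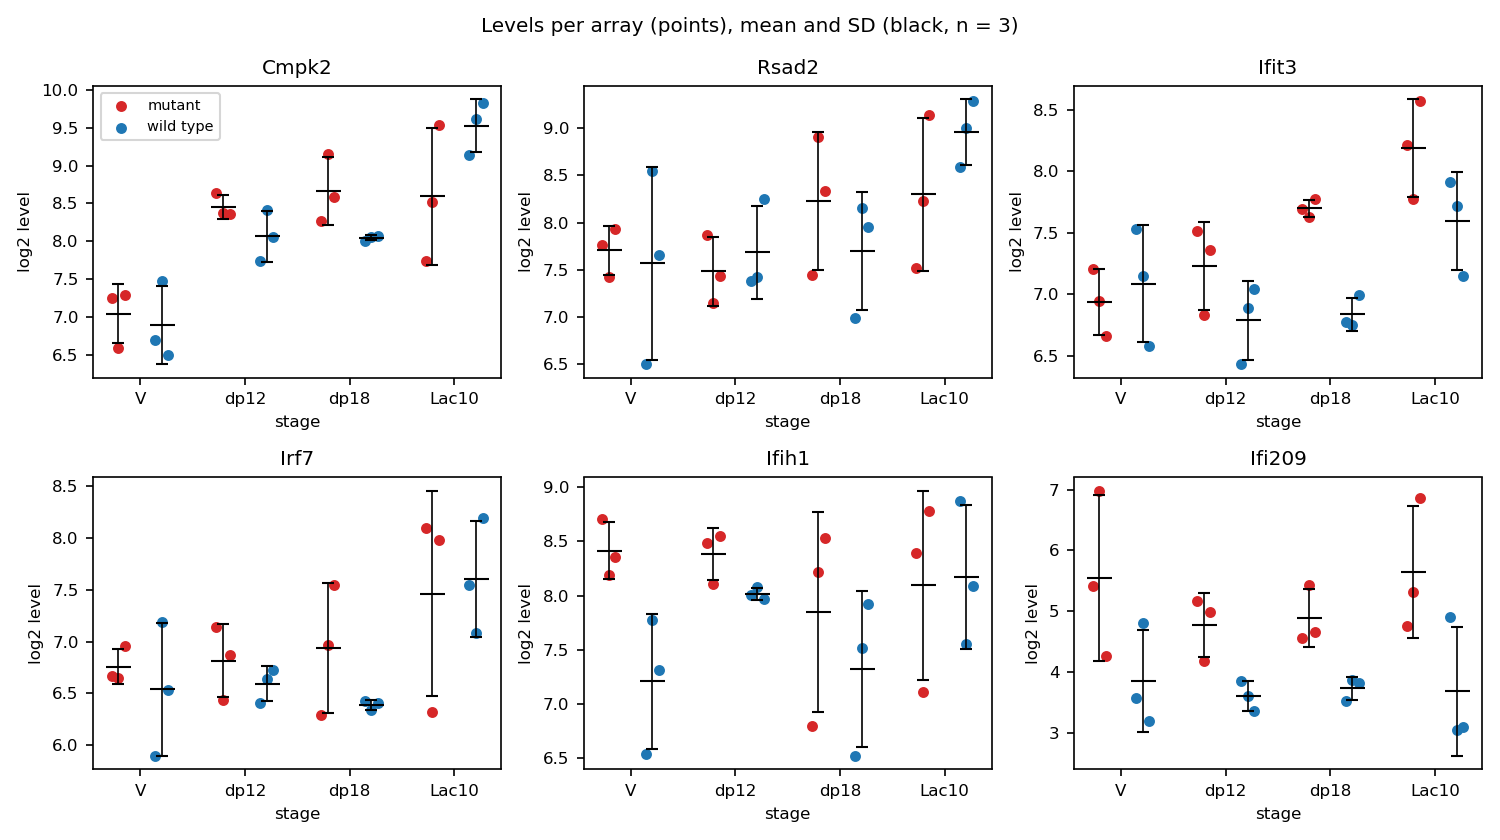
Log2 levels of 6 members on each array (points, mutant red and left of wild type blue) at the 4 stages, with the mean and SD in black (n = 3 arrays). Cmpk2 is lowest in virgins, Ifit3 in mutants climbs without overlap from dp12 to Lac10, and Ifi209 is above wild type in every mutant array at dp12 and dp18. Ifi209 passed the filter on low values only through mutant arrays.

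From dp18 to Lac10 in wild type nearly all members shifted the same way, though none passed. Lac10 levels were higher for 29 of the 30 members, against 60.8% of all genes tested, with a median difference of 0.79 over the members and 0.09 over all genes. With limma 0 of 30 were called, as 0% of all genes were, and 16 had an unadjusted p under 0.05, against 8% of all genes. For 18 members all 3 Lac10 arrays lay above all 3 dp18 arrays, against 9.83% of all genes, and for 0 they lay below, against 2.67%. Members share arrays, so these counts are not independent evidence for each gene. The median was 0.54 with housekeeping centring and 0.86 with array median centring. It was 0.63 without the 3 arrays of low correlation, 0.69 without the 2 arrays that go against their labels and 0.46 without all 5.

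Among the transcription factors, Irf7, the factor that amplifies type I interferon production, lay at 7.55, 7.08 and 8.19 in wild-type Lac10 arrays, against 6.43, 6.34 and 6.40 at dp18. The groups did not overlap, and the difference was 1.22 (SE 0.41, adjusted p = 0.431, limma). Stat2, a subunit of the complex that binds the response element, lay at 8.22, 7.92 and 8.51 at Lac10, against 6.24, 7.11 and 7.53 at dp18 (difference 1.25, SE 0.54, adjusted p = 0.568). Irf9, its DNA-binding partner, differed by 0.53 (SE 0.32, adjusted p = 0.733), again with no overlap.

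Among the RNA-directed effectors all 7 members were higher at Lac10 than at dp18 in wild type, with a median of 0.75. Oas2, which makes the oligoadenylates that activate RNase L, lay at 7.32, 5.92 and 8.70 at Lac10, against 5.42, 5.63 and 5.87 at dp18. The difference was 1.67 (SE 0.58, adjusted p = 0.447, limma), with Lac10 replicate 2 close to the dp18 arrays. Ifit1, a sensor of RNA that lacks the host cap methylation, lay at 8.04, 7.26 and 7.36 at Lac10, against 5.83, 6.12 and 6.39 at dp18 (difference 1.44, SE 0.47, adjusted p = 0.431). Its groups were apart, and dp18 was also lower than dp12 by a difference of -1.02 (SE 0.47, adjusted p = 0.484).

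The other antiviral effectors were higher at Lac10 in wild type for 7 of 7 members, with a median of 1.07. Cmpk2 had 1.48 (SE 0.36, adjusted p = 0.365, limma), and this passed without wild-type Lac10 replicate 1 (1.68, adjusted p = 0.0489). Rsad2, the neighbour of Cmpk2 and the gene of viperin, which makes a chain-terminating nucleotide, lay at 8.59, 9.00 and 9.28 at Lac10, against 6.98, 8.16 and 7.96 at dp18 (difference 1.26, SE 0.48, adjusted p = 0.497). Bst2, the gene of tetherin, which holds budding virus at the cell surface, lay at 7.51, 7.27 and 7.10 at Lac10, against 5.50, 6.63 and 6.55 at dp18 (difference 1.07, SE 0.41, adjusted p = 0.515). In each of these the lowest Lac10 array was above the highest dp18 array.

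Ubiquitin-like modification and ADP-ribosylation genes were higher in 5 of 5 members (median 0.61), with Usp18, the protease that removes ISG15 from proteins, at 7.96, 7.18 and 8.53 at Lac10, against 6.24, 6.16 and 6.55 at dp18 (difference 1.57, SE 0.58, adjusted p = 0.482, limma). Of the nucleic acid sensors 4 of 5 were higher (median 0.75), Ifi209 being the exception at -0.05. Ifi35, Xaf1 and Lgals3bp, the remaining interferon-induced genes, were higher with differences between 0.74 and 1.04.

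Leukocyte markers were also higher in wild type at Lac10 than at dp18. All 10 macrophage and neutrophil markers tested were higher, with a median of 0.63, and all 8 T and B lymphocyte markers, with a median of 0.64, and none of them passed. The mean level of the macrophage markers lay between 7.16 and 7.74 on the Lac10 arrays, against 6.31 to 7.23 at dp18, and that of the lymphocyte markers between 6.03 and 7.28, against 5.46 to 6.42. Of plasmacytoid dendritic cell markers 2 of 4 were higher (median 0.09). S100a8, S100a9 and Ccr9 of these lists were below the filter. The part of these cells in the shift was not tested.

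In mutants the direction of the same step rested on single arrays. Lac10 was above dp18 for 27 of 30 members, against 36.3% of all genes, with a median of 0.23 over members and -0.10 over all genes, and 0 of 30 were called by limma (0% of all genes, 1 member at an unadjusted p under 0.05, against 2.95% of all genes). The median was -0.18, with 10 of 30 higher, without mutant dp18 replicate 1, and -0.09, with 13 of 30, without mutant Lac10 replicate 3. It was 0.67 without mutant Lac10 replicate 2, and with housekeeping centring 0.66 with 30 of 30 higher. The member under 0.05 was Xaf1, a gene linked to apoptosis, at 8.64, 8.32 and 9.40 at Lac10, against 7.72, 7.94 and 8.39 at dp18 (difference 0.77, SE 0.31, adjusted p = 0.987). Ifit3 was the 1 member whose Lac10 arrays were all higher, against 1.02% of all genes, and 0 members had them all lower, against 1.46%. Oas2 lay at 8.59, 6.07 and 7.82 in mutants at Lac10, against 5.78, 6.74 and 6.89 at dp18 (difference 1.02, SE 0.58, adjusted p = 0.987), and the groups overlapped. The mutant step minus the wild-type step had a median of -0.59 over members and -0.21 over all genes, below 0 for 29 of 30 members, but it was 0.09 with housekeeping centring and ran from -1.01 without mutant dp18 replicate 1 to -0.11 without mutant Lac10 replicate 2. No member passed in this difference (limma, 0% of all genes called, 1 member at an unadjusted p under 0.05, against 6.26% of all genes). Cmpk2 was the lowest, at -1.55 (SE 0.51, adjusted p = 0.742).

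Lac10 was the stage of the highest mean for 21 of 30 members in mutants and 26 of 30 in wild type, against 20.5% and 27.1% of all genes tested. It was the lowest for 0 members in either genotype, against 46.6% of all genes in mutants and 16.8% in wild type. In wild type the lowest stage was dp18 for 13 members (18.6% of all genes) and V for 12 (44.5%). In mutants it was V for 13 (18.1%), dp12 for 10 (23.0%) and dp18 for 7 (12.3%).

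From V to dp12 the members did not move as a group. In mutants 16 of 30 were higher, with a median of 0.03 over the members and 0.01 over all genes, and in wild type 22 of 30, with 0.23 and 0.28. Housekeeping centring turned both medians, to -0.32 in mutants and -0.31 in wild type, and moved all genes by -0.35 and -0.55. Leaving out 1 array gave medians from -0.10 (mutant dp12 replicate 1) to 0.21 (mutant dp12 replicate 2) in mutants and from -0.02 (wild-type virgin replicate 1) to 0.59 (wild-type virgin replicate 2) in wild type. Every dp12 array lay above every virgin array for 4 members in mutants, against 22.1% of all genes, and for 5 in wild type, against 41.7%. The reverse held for 0 members in either genotype, against 15.3% of all genes in mutants and 13.9% in wild type. Bst2 lay at 7.14, 7.06 and 7.59 in mutants at dp12, against 6.70, 6.03 and 6.27 in virgins (difference 0.93, SE 0.41, adjusted p = 0.276, limma). Ddx58, which encodes the RNA sensor RIG-I, lay at 8.18, 8.47 and 8.47 in wild type at dp12, against 7.58, 7.61 and 7.20 in virgins (difference 0.91, SE 0.41, adjusted p = 0.135). Both genes were apart between the stages. Parp9, an ADP-ribosylation enzyme, lay at 7.46, 7.77 and 7.53 in wild type at dp12, against 6.76, 7.07 and 6.46 in virgins (difference 0.83, SE 0.45, adjusted p = 0.203). The mutant step minus the wild-type step had a median of -0.26 over members and -0.21 over all genes, from -0.53 without wild-type virgin replicate 2 to 0.01 without wild-type virgin replicate 1, and limma called 0 of 30 members (0.00656% of all genes, 0 members at an unadjusted p under 0.05, against 5.95% of all genes).

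From dp12 to dp18 members were lower in wild type for 24 of 30 and higher for 6, against 32.7% higher over all genes, with a median of -0.31 over members and -0.21 over all genes, and housekeeping centring turned the median to 0.10. Without wild-type dp18 replicate 1 it was -0.08, with 11 of 30 members higher. No member was called by limma (0% of all genes), and 1 had an unadjusted p under 0.05, against 9.69% of all genes. For 7 members every dp18 array lay below every dp12 array, against 18.9% of all genes. Oasl1, an oligoadenylate synthetase-like gene known in mice to restrain Irf7 translation, lay at 5.88, 6.86 and 6.85 at dp18, against 7.21, 7.47 and 8.00 at dp12 (difference -1.03, SE 0.51, adjusted p = 0.484). In mutants 18 of 30 members were higher (median 0.11, and -0.17 over all genes), 0 were called (0% of all genes, 0 members at an unadjusted p under 0.05, against 13.7% of all genes), and the median was -0.15 without mutant dp18 replicate 2, which goes against its label, -0.16 without mutant dp18 replicate 3, -0.08 without mutant dp12 replicate 2 and 0.45 without mutant dp18 replicate 1. Ifit3 alone had its groups apart there, with dp18 higher, against 5.49% of all genes apart that way and 20.6% apart with dp18 lower. Rsad2 lay at 7.45, 8.90 and 8.33 in mutants at dp18, against 7.86, 7.14 and 7.44 at dp12 (difference 0.75, SE 0.48, adjusted p = 0.452, limma), and mutant dp18 replicate 1 was within the dp12 range. In the difference between the genotypes' steps no member was called (0% of all genes, 0 members at an unadjusted p under 0.05) and the median was 0.34, with 27 of 30 above 0, from 0.12 without mutant dp18 replicate 3 to 0.68 without mutant dp18 replicate 1.

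Between genotypes no member passed at any stage. At V, mutant levels were higher for 28 of 30 members, against 67.4% of all genes, with a median of 0.33 over members and 0.20 over all genes. Called by limma were 0 of 30 members and 0.0263% of all genes, with 2 members at an unadjusted p under 0.05, against 15.8% of all genes. Ifih1, which encodes the RNA sensor MDA5, lay at 8.70, 8.19 and 8.35 in mutant virgins, against 6.54, 7.77 and 7.32 in wild-type virgins. The groups were apart, by a difference of 1.21 (SE 0.47, adjusted p = 0.265), and without the 3 arrays of low correlation it was the 1 member of 30 called (adjusted p = 0.0128), while 20.1% of all genes were called. None of those 3 arrays is from virgins, so the estimate of the spread changed and the difference did not. With only the virgin arrays fitted, 0 of 30 members were called, against 4.69% of all genes. Oas3 was the other member whose groups were apart, which makes 2 of 30, both higher in mutants. Of all genes 25.5% were apart in that direction and 8.64% in the other. With housekeeping centring the median was 0.10, with 19 of 30 members above 0. Without wild-type virgin replicate 1 it was 0.24 with 20 of 30 above 0, and without wild-type virgin replicate 2 it was 0.62. Of the macrophage and neutrophil markers 1 of 10 was higher in mutants (median -0.43), and of the lymphocyte markers 5 of 8 (median 0.26). Plasmacytoid dendritic cell markers were higher for 2 of 4 (median 0.06) and luminal epithelial markers for 6 of 6 (median 0.41). The part of these cells was not tested.

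At dp12 mutants were higher for 22 of 30 members, against 49.1% of all genes, with a median of 0.19 over members and -0.00347 over all genes. Leaving out 1 array gave medians from 0.09, with 17 of 30 higher (wild-type dp12 replicate 1), to 0.32, with 27 of 30 (mutant dp12 replicate 2). No member was called by limma (0% of all genes, 0 members at an unadjusted p under 0.05). Groups were apart for 7 members, all higher in mutants, against 6.69% of all genes: Herc6, Ifih1, Ifi209, Oas3, Bst2, Gbp3 and Ifi35. Of these, Ifi209 passed the filter on low values only through mutant arrays. Bst2 lay at 7.14, 7.06 and 7.59 in mutants, against 6.18, 6.77 and 6.30 in wild type (difference 0.84, SE 0.41, adjusted p = 1.00).

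At dp18 mutants were higher for all 30 members, against 51.2% of all genes, with a median of 0.53 over members and 0.01 over all genes. No member was called by limma (0% of all genes), and 2 had an unadjusted p under 0.05, against 0.656% of all genes. Groups were apart for 4 members, Ifi209, Ifit1, Ifit3 and Cmpk2, all higher in mutants, against 1.27% of all genes. Ifi209 is counted here though it passed the filter on low values only through mutant arrays. Apart in the other direction were 0 members, against 1.07% of all genes. Ifit3 had the smallest p of the members (difference 0.86, SE 0.27, adjusted p = 1.00), with the mutant arrays at 7.63 and above and the wild-type arrays at 6.99 and below. Ifit1 lay at 6.51, 7.55 and 7.38 in mutants, against 5.83, 6.12 and 6.39 in wild type (difference 1.04, SE 0.47, adjusted p = 1.00). Gbp3, an interferon-induced GTPase, lay at 5.61, 7.13 and 7.58 in mutants, against 5.23, 5.80 and 6.17 in wild type (difference 1.04, SE 0.51, adjusted p = 1.00), and mutant replicate 1 was within the wild-type range. Usp18 lay at 6.52, 7.88 and 7.85 in mutants, against 6.24, 6.16 and 6.55 in wild type (difference 1.10, SE 0.58, adjusted p = 1.00).

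The size of the dp18 shift depended on single arrays: the median was 0.26 without mutant dp18 replicate 3, 0.34 without wild-type dp18 replicate 1 and 0.91 without mutant dp18 replicate 1, with 26 to 30 members above 0 when any 1 array was left out. The median was 0.35 with housekeeping centring, where 27 of 30 members stayed above 0, and 0.55 with array median centring. Without the 3 arrays of low correlation it was 0.71, with 29 of 30 above 0, and without the 2 arrays that go against their labels 0.37, with 28 of 30. All 8 lymphocyte markers were also higher in mutants at dp18 (median 1.22), as were 9 of 10 macrophage and neutrophil markers (median 0.41) and 4 of 4 plasmacytoid dendritic cell markers (median 0.34), while 0 of 6 luminal epithelial markers were (median -0.70). None of these markers passed. The mean of the lymphocyte markers was 6.20, 7.90 and 6.91 on the mutant arrays, against 5.46, 5.70 and 6.42 on the wild-type arrays. That of the luminal markers was 9.47, 8.03 and 10.10, against 9.66, 10.06 and 10.02. Mutant dp18 replicate 2, which goes against its label, held the highest lymphocyte and the lowest luminal mean, and mutant replicate 3 the highest luminal mean. The part of these cells in the shift of the members was not tested. The wild-type dp18 arrays also enter the step to Lac10 above, so the larger values there and here share arrays.

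At Lac10 15 of 30 members were higher in mutants, against 33.6% of all genes, and the median was 0.00 over members and -0.19 over all genes. It was 0.50 with housekeeping centring and -0.10 with array median centring. Without mutant Lac10 replicate 3 it was -0.38, with 5 of 30 members higher, and without mutant Lac10 replicate 2 it was 0.42, with 26 of 30. Without the 3 arrays of low correlation and the 2 that go against their labels it was 0.65, with 27 of 30. Called by limma were 0 of 30 members and 0.236% of all genes, with 3 members at an unadjusted p under 0.05, against 17.6% of all genes, and 0 groups were apart, against 3.24% of all genes higher and 12.4% lower in mutants. Cmpk2 had -0.93 (SE 0.36, adjusted p = 0.201), and Rsad2 beside it had -0.66 (SE 0.48, adjusted p = 0.459). Cmpk2 passed without mutant Lac10 replicate 3 (-1.40, adjusted p = 0.0178). The 3 transcription factors were lower in mutants (median -0.16), and 6 of 7 RNA-directed effectors higher (median 0.21).

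Ifi209, a member of the Ifi200 family of nucleic acid sensors, lay below the array median on all 12 wild-type arrays and above it on 4 of 12 mutant arrays. It thus passed the filter on low values only through mutant arrays, so its levels are given as a description with no test. The counts of members above and below, with groups apart or with an unadjusted p under 0.05 include it where it met them, as do the medians. It lay in virgins at 5.42, 6.98 and 4.26 in mutants, against 3.56, 4.80 and 3.20 in wild type, and at dp12 at 5.17, 4.17 and 4.98, against 3.85, 3.60 and 3.37. At dp18 it lay at 4.56, 5.43 and 4.66 in mutants, against 3.52, 3.86 and 3.82 in wild type, and at Lac10 at 4.76, 5.31 and 6.86, against 4.91, 3.04 and 3.10. The groups were apart at dp12 and dp18 and overlapped by 1 wild-type array at V and at Lac10, and at dp12 the mutant arrays too were below the array median.

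Ifi209 resembles other Ifi200 genes in sequence, and how far its probe set reads them was not tested. Ifi204, another gene of the family on the sensing list, had -0.60 at dp12 (SE 0.69, adjusted p = 1.00), and its other stages are not given here.

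Averaged over stages, mutants were higher for 28 of 30 members, against 49.5% of all genes, with a median of 0.26 over members and -0.00152 over all genes. No member was called by limma (0% of all genes), and 6, Ifi209 among them, had an unadjusted p under 0.05, against 3.01% of all genes. Leaving out mutant Lac10 replicate 3 gave a median of 0.15. Apart from Ifi209 the smallest p belonged to Ifit3 (0.44, SE 0.14, adjusted p = 1.00) and Oas3 (0.30, SE 0.12, adjusted p = 1.00). The mutant mean was above wild type at all 4 stages for 11 of 30 members, against 3.68% of all genes, and below it at all 4 for 0, against 2.92%. These 11 were Herc6, Parp12, Ddx58, Zbp1, Ifi209, Ifit2, Oas2, Oas3, Oasl2, Rtp4 and Gbp3, of which Ifi209 passed the filter only through mutant arrays. With the F test that the 4 genotype differences are equal, 0 of 30 members were called (0.00656% of all genes, 1 member at an unadjusted p under 0.05, against 12.4% of all genes), the smallest adjusted p being that of Cmpk2 at 0.373.

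**Figure D5:**
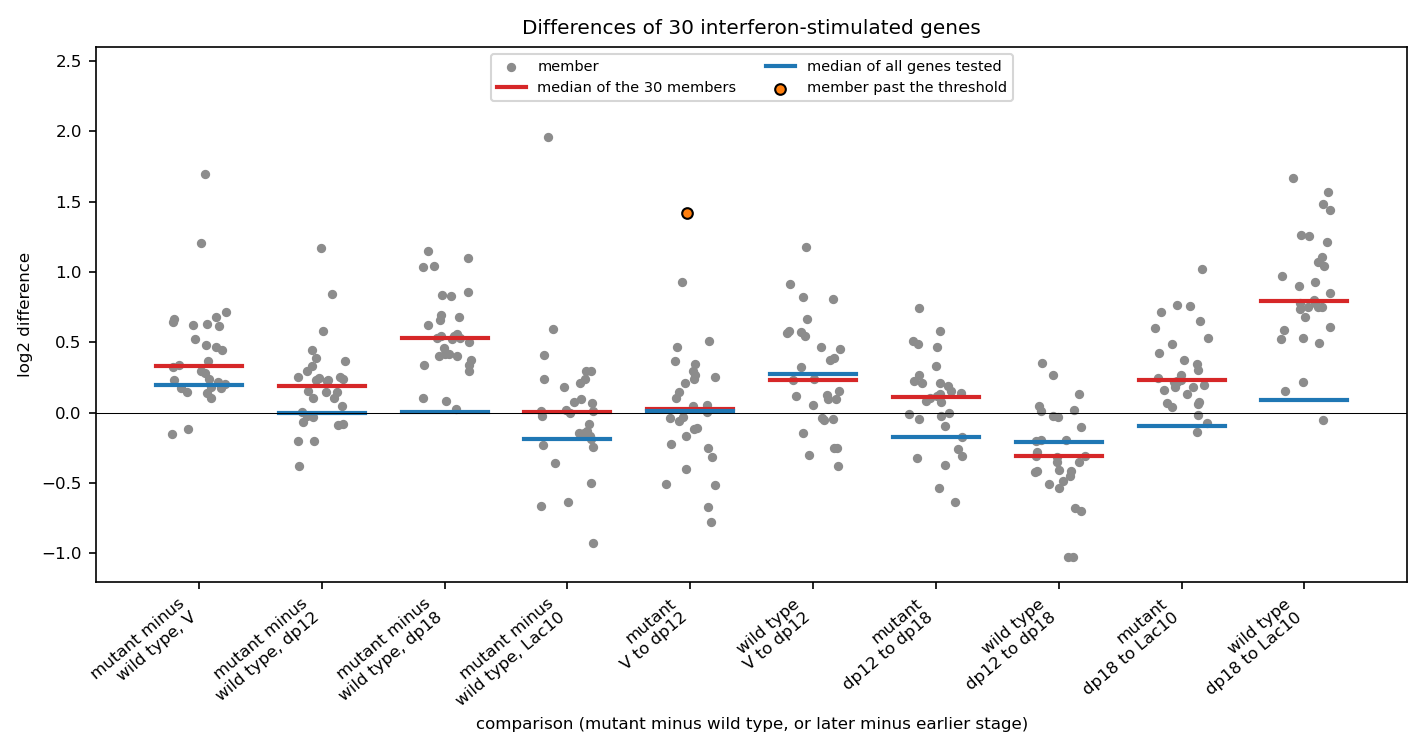
Log2 differences of the 30 members (grey points, orange where past the threshold) in 10 comparisons, with the median over members in red and over all genes tested in blue. The member median lies above that of all genes at dp18 between genotypes (0.53 against 0.01) and from dp18 to Lac10 in wild type (0.79 against 0.09), and Cmpk2 from V to dp12 in mutants is the 1 point past the threshold.

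Genes upstream of the members or induced with them were counted from lists. Of 15 receptor and signalling genes, among them Ifnar1, Jak1 and Tyk2, 10 were higher in mutants at dp18 (median 0.18) and 12 higher at Lac10 than at dp18 in wild type (median 0.27), with 0 called in either. Of 15 other RNA and DNA sensing genes, 9 and 14 were higher in these comparisons (medians 0.14 and 0.43). Of 14 MHC class I presentation genes all were higher in both (medians 0.24 and 0.58), and of 16 targets of interferon-gamma 14 and 15 (medians 0.52 and 0.94), again with 0 called. Of all genes 51.2% and 60.8% were higher in these comparisons, which share the wild-type dp18 arrays. Between genotypes at Lac10 the lists, in this order, had 2, 3, 3 and 3 genes higher in mutants, against 33.6% of all genes. At dp12 these counts were 7, 6, 13 and 15, against 49.1% of all genes, and at V 13, 11, 13 and 10, against 67.4%. From dp18 to Lac10 in mutants they had 3, 5, 5 and 8 higher, against 36.3% of all genes. Psmb9, a subunit of the immunoproteasome, differed by 0.99 at dp18 (SE 0.45, adjusted p = 1.00, limma). Of the interferon genes on the list, Ifnb1 and Ifng did not pass the filter on low values and Ifna4 did.

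Of these lists, Tlr3, the endosomal RNA sensor, rose from V to dp12 in wild type by 1.78 (SE 0.40, adjusted p = 0.0172, limma), 1 of 15 sensing genes, against 6.45% of all genes called (5.91% higher). Ido1, an enzyme of tryptophan breakdown, fell by 2.03 from V to dp12 in mutants (SE 0.36, adjusted p = 0.00166), 1 of 16 interferon-gamma targets, against 4.44% of all genes called (1.42% lower), while 12 of the 16 were higher there. Neither passed between genotypes.

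Isg15, the ubiquitin-like modifier, and Mx1, a GTPase that traps viral ribonucleoprotein, were above the array median on 0 arrays. Isg15 ranged from 3.98 to 5.02 and Mx1 from 3.61 to 5.11 on the log2 scale. Mx2, which is on the same list and was tested, ranged from 4.57 to 6.71 and passed nowhere.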

How the data were processed

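RNA of 24 mouse samples was measured on single-colour expression arrays. The deposited values are log2 expression from RMA (version not stated), per the submitters' processing notes, and between-array normalization by the authors was kept, which hides a shift common to all genes. Total RNA was extracted and labelled with biotin, per the labels' extraction and labelling protocols, while another protocol field speaks of the pull-down mentioned above. Groups came from the stage and genotype labels. Titles number the wild-type replicates, and accession order numbers the mutants.

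Of 41345 probe sets, 23521 had 1 symbol, 1814 several and 16010 none in the platform annotation. A gene was tested where its value exceeded the array median on 3 or more arrays. Limma 3.58.1 in R 4.3.3 was fitted to all 24 arrays with 1 mean per group (16 residual and 4.35 prior degrees of freedom), with Benjamini-Hochberg adjustment over 15234 genes and a threshold of 0.05. Titles point to separate animals without stating it, so the spread behind the p-values may be partly technical. The script was tested on simulated data. Promoter windows and motif searches used RefSeq (GRCm38.p6), in which 27 of the 37 members matched.

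The members and gene lists were chosen with earlier results of these data known. All members are accounted for. Those named per comparison passed it or had its smallest p, and 11 genes were named throughout. For other lists, up to 2 members were named. Alternatives changed the probe set rule, filter, centring, array weights, prior, arrays fitted and the wild-type block, and left out each array. Leaving out 5 arrays together was added after seeing the data. Members with shared probe sets were not tested.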

Additional observations from a re-analysis of the deposited data

Results flagged for a closer look

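Probe sets shared with a neighbouring or related gene were outside the tests, and 2 of them showed all 3 mutant arrays above all 3 wild-type arrays at a stage, as 25.5% of all genes tested did at V and 6.69% at dp12. The probe set of Dtx3l and Parp9, a ubiquitin ligase and its ADP-ribosylating partner, averaged 7.56 ± 0.24 in mutants and 6.91 ± 0.15 in wild type at V (SD, n = 3 each), a difference of 0.654, and at dp12 the difference was 0.210. The probe set of Gbp2 and Gbp2b, guanylate-binding GTPases, averaged 8.28 ± 0.38 in mutants and 7.57 ± 0.31 in wild type at dp12, a difference of 0.709. Neither difference was tested, and which of the 2 genes on each probe set gives the signal cannot be told. The probe set of Parp9 alone averaged 7.13 in mutants and 6.76 in wild type at V, and 7.64 and 7.59 at dp12. Its groups overlapped at both stages.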

How the results depend on the processing

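Of the single-gene results recomputed, which cover the genes named for each comparison, none reversed, though other members changed sign, as the counts above 0 in the text show. Counts of members called are given with the share of all genes called in the same fit, except where 1 array was left out. Array weights, which ran from 0.0949 to 5.97, called 7 (36.6%), 1 (0.952%) and 7 (21.7%) members for genotype at V, dp12 and Lac10, 5 (0.781%) on average and 3 (39.3%) for genotype by stage. They called 2 (26.9%) and 12 (63.9%) from V to dp12 in mutants and wild type, 2 (18.1%) from dp12 to dp18 and 14 (25.6%) from dp18 to Lac10 in wild type, 1 (28.2%) and 1 (1.42%) in the step differences from V to dp12 and from dp18 to Lac10, and 10 (36.9%) and 22 (80.8%) over stages in mutants and wild type. Ifi209 is in the array-weight counts for genotype at V, at Lac10 and on average, though it passed the filter only through mutant arrays. Without the 3 arrays of low correlation 1 (20.1%) was called for genotype at V, 2 (10.5%) and 3 (41.2%) from V to dp12 in mutants and wild type, and 6 (9.14%) and 5 (39.3%) over stages. Without the 2 arrays that go against their labels 1 (1.77%) was called for genotype at Lac10, Ifi209, which passed the filter only through mutant arrays, and 1 (0.978%) from dp18 to Lac10 in wild type (Cmpk2, 1.68). Without all 5, 1 (23.3%) was called at V, 2 (12.7%) and 4 (43.6%) from V to dp12, 1 (5.31%) from dp18 to Lac10 in wild type, and 6 (12.1%) and 7 (46.5%) over stages. With only the groups compared, 2 (18.2%) and 4 (39.1%) members were called from V to dp12 and 0 (1.23%) over stages in mutants. Housekeeping centring left 0 (8.99%) called from V to dp12 in mutants and 8 (10.1%) over stages there, with medians of -0.32 and -0.31 from V to dp12 in mutants and wild type and 0.10 from dp12 to dp18 in wild type. It shifted the median of all genes by -0.24 (V), -0.18 (dp18) and 0.50 (Lac10) between genotypes. Array median centring left 1 member over stages in mutants, where 508 of 15234 genes were called. Leaving out 1 array gave 0 to 1 members called for genotype at Lac10, for the average, from V to dp12 in mutants and from dp18 to Lac10 in wild type, and 0 to 3 over stages in mutants, with the shares of all genes not given here. The cause of these moves was not tested.

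With wild-type arrays alone, 1 member (Cmpk2) was called from V to dp12 both with the replicate number as a block (adjusted p = 0.0369, with 5.13% of all genes called) and without it (0.0306). Same-numbered arrays had a median correlation of deviations of 0.0269, with 4 of 18 pairs over 0.1, so the numbers were not taken to pair the arrays.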

Other observations

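The probe set of Oas1a and Oas1g averaged 5.85 ± 0.84 in mutants and 5.70 ± 0.44 in wild type at Lac10 (SD, n = 3 each), against 5.28 ± 0.54 in mutants and 5.09 ± 0.17 in wild type at dp18. The probe set of Ifi27l2a and Ifi27l2b averaged 5.38 ± 0.41 in mutants and 4.88 ± 0.14 in wild type at dp18. The second probe set of Lgals3bp averaged 7.20 ± 0.37 at Lac10 and 6.08 ± 0.21 at dp18 in wild type, the same direction as the tested one. In mutants at dp18 it averaged 6.03, slightly below wild type, while the tested one was higher in mutants there.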
